A study of Mus musculus with 6 samples.

Results

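The Slc2a genes code for the Glut proteins, carriers that let glucose, fructose and related molecules cross a membrane down their concentration gradient. The 10 followed here were chosen by name, with no measured value in the rule but with earlier results of these data known. They were Slc2a1, Slc2a2, Slc2a3, Slc2a4, Slc2a5, Slc2a6, Slc2a8, Slc2a9, Slc2a10 and Slc2a12. All 10 were measured, each by 1 probe set that the platform's annotation gives to that gene alone, among 19937 genes read in the same way. RNA came from dissociated whole livers of FVB/NJ mouse embryos at embryonic day 13.5, from timed matings in a colony of Klf1 +/- mice. Of the samples 3 were wildtype and 3 were Klf1-/- (the Klf1 knockout), so n = 3 per group throughout, with 1 Affymetrix Mouse Gene array per sample. Each sample is called a liver below, though the sample titles give only a replicate number and do not name separate embryos. Klf1 is an erythroid transcription factor of the Krüppel-like family, and the labels name no cell type to which its loss was limited. Both groups shared strain, stage and tissue, and the comparison asks which RNA levels differ in a liver without Klf1.

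Facilitative carriers need no energy: each protein alternates between an outward and an inward facing shape, and the direction of net flow follows the sugar. The family is split by sequence into class I (Slc2a1 to Slc2a4), which mainly moves glucose, class II, which holds the fructose carrier gene Slc2a5 and the urate carrier gene Slc2a9, and class III, many of whose members sit in membranes inside the cell. Fetal liver makes red cells around a scaffold of hepatoblasts and macrophages, and the red cells of the mouse fetus take up glucose through Glut1, the product of Slc2a1.

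Krüppel-like factors bind CACCC and GC-rich sites. The promoters of 3 members are shown as examples, picked with their changes and their matches to the motif CCNCNCCC known. Slc2a1 was lower in the knockout and holds the motif. Slc2a5 holds the most matches and was not called changed, and Slc2a12 was lower and holds none. Of the members not shown, Slc2a8 was lower and holds none, and Slc2a10 holds 1 match and was not called. Whether the motif goes with the changes was not tested. The sequences are the 250 bases before the annotated start, from RefSeq on GRCm38.p6, read 5′ to 3′ on the gene's strand, which is the plus strand for these 3 genes. Capitals mark matches to CCNCNCCC on either strand. Slc2a1 lies at chr4:119108495-119108744, Slc2a5 at chr4:150119094-150119343 and Slc2a12 at chr10:22644761-22645010.
Slc2a1: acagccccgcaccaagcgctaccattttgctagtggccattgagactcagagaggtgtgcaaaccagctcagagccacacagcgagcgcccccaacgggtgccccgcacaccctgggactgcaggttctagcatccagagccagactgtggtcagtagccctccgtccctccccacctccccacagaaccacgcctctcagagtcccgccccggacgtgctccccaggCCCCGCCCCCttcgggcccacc
Slc2a5: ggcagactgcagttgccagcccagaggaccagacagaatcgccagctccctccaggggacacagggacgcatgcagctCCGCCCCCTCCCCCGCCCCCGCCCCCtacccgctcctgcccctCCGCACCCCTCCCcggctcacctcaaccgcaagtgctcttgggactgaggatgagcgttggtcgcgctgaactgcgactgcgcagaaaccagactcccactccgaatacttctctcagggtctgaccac
Slc2a12: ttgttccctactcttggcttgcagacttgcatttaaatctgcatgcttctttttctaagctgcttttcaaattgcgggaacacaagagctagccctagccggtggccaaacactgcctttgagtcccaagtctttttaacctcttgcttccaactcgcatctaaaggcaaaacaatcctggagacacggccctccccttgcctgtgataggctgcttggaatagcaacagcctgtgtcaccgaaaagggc
In Slc2a1 the 2 matches overlap and together span bases 22 to 13 before the start. The same promoter holds 2 matches to the shorter CACCC and 1 to ACGTG, the core of the hypoxia response element, at bases 36 to 32 before the start. Slc2a5 holds 9 matches to CCNCNCCC in 2 separate runs, over bases 172 to 147 and 129 to 117 before the start. RefSeq promoters were found for 8 of the 10 members, all but Slc2a3 and Slc2a4. Of these 8, 3 held CCNCNCCC (Slc2a1, Slc2a5 and Slc2a10), 6 held CACCC, 1 held ACGTG and 1 held GATAA, the GATA factor motif (Slc2a2). Among all 32851 promoters of this length, 45.9% held CCNCNCCC, 52.0% CACCC, 16.6% ACGTG and 22.6% GATAA, on either strand. CCNCNCCC and CACCC can overlap each other. A match describes letters in this window and says nothing of binding.

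The arrays were alike in their middle, with median probe set intensities of 104.5 to 109.8. The lower quartile of genes was 5.512 to 5.575 log2 units in the wildtype and lower in the knockout, at 5.387 to 5.495. The upper quartile was 8.878 to 8.903 in the wildtype and higher in the knockout, at 8.912 to 8.977. The targeted gene Klf1 read lower in all knockout arrays and fell by 1.46 ± 0.10 in log2 units (limma, adjusted p = 3.7e-06). Which part of the gene was altered is not given in the labels. The labelled tissue carried signal of its main cell types, with Alb at 13.78 to 14.03 and the erythroid gene Alas2 at 11.64 to 12.79 log2 units over the 6 arrays. Every change below is the knockout mean minus the wildtype mean in log2 units, ± the standard error from limma. Calls were made where the p-value, adjusted by Benjamini-Hochberg over all 19937 genes, was under 0.05. They numbered 3809, of which 43.2% were lower, a share that became 61.0% with arrays centred at the 75th percentile and 30.4% with centring on housekeeping genes.

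Of the 10 Slc2a genes 5 were called, where 19.1% of all genes were. Slc2a3 alone rose, a direction called in 10.8% of all genes, and 4 fell (40.0%), against 8.26%. Slc2a1 and Slc2a4 fell by more than 2-fold, a size that 1.56% of all genes reached with a call. The groups did not overlap in 6 members, Slc2a1, Slc2a3, Slc2a4, Slc2a8, Slc2a10 and Slc2a12, where this held for 37.5% of all genes. The median change of the 10 was -0.23, against -0.02 over all genes, and the median size of change was 0.32 against 0.14. Over genes above the median of brightness alone the median change was 0.057, so dimmer genes leaned lower. Of the 10 members 5 were below the median of genes on all arrays, and the part of this lean in their changes was not tested. The change was negative in 8 members and positive in 2, Slc2a3 and Slc2a9, and no member changed sign under any of the alternatives run. By class, 1 of the 4 class I genes rose and 2 fell, neither class II gene was called, and 2 of the 4 class III genes fell.

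**Figure D1:**
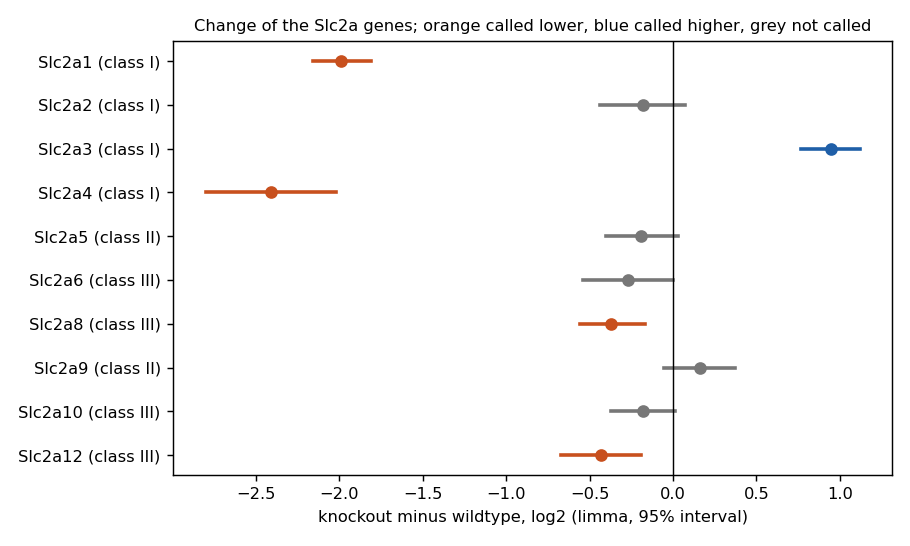
Change of each Slc2a gene, knockout minus wildtype in log2 units (x axis), as a point with the 95% interval of the limma fit; orange is called lower, blue called higher, grey not called. The intervals of Slc2a1 and Slc2a4 end at -1.81 and -2.02, that of Slc2a3 starts at 0.77, and those of the other 7 lie between -0.67 and 0.37.

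Slc2a1 codes for Glut1, the basal glucose carrier of most cells and, in the mouse fetus, of red cells. Its intensity was 11674, 11451 and 12411 in the wildtype livers and 3164, 2931 and 2882 in the knockout livers. The groups lay far apart, and within each group the arrays differed by no more than 0.13 log2 units. The mean went from 13.53 ± 0.06 to 11.55 ± 0.07 (log2, SD, n = 3), a change of -1.99 ± 0.08 with a 95% interval of -2.16 to -1.81 (limma, adjusted p = 4.8e-08). The knockout livers thus held 25.3% of the wildtype signal, a 3.96-fold fall and the 49th largest of all genes. In whole livers, fewer cells of a type and less RNA per cell cannot be told apart. Signal stayed above the upper quartile of genes on all 6 arrays.

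Slc2a4 codes for Glut4, the carrier that insulin brings to the surface of fat and muscle cells. It read 321, 374 and 498 in the wildtype livers and 70.6, 60.3 and 93.2 in the knockout. Every knockout value was below every wildtype value, and the spread within each group, 0.64 and 0.63 log2 units, was wider than for Slc2a1. The mean fell from 8.61 ± 0.32 to 6.20 ± 0.32 (log2, SD, n = 3), a change of -2.41 ± 0.18 with an interval of -2.80 to -2.02 (limma, adjusted p = 5.0e-06), or 5.32-fold. By size this was the largest change of the 10 and the 30th largest fall of all genes. The signal went from above the median of genes on all wildtype arrays to below it on all knockout arrays.

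Markers of fat and muscle were read beside Slc2a4, since those are the tissues it is known for. Of 8 adipocyte genes 1 rose, Fabp4, by 1.35 ± 0.09 (limma, adjusted p = 2.8e-06), and 1 fell, Lpl, by 0.37 ± 0.11 (adjusted p = 0.0363), a call lost with wildtype replicate 3 (adjusted p = 0.067) or knockout replicate 1 (0.0912), 2 (0.0825) or 3 (0.0828) left out. Their summed intensity was 1544 to 1876 in the wildtype and 1582 to 1631 in the knockout, which overlap. Adipoq, the defining gene of fat cells, read 4.75, 4.97 and 4.78 against 5.08, 4.69 and 4.99, below the lower quartile of genes on all 6 arrays. Of 10 muscle genes none rose and 3 fell, Myod1 by 0.47 ± 0.10 (limma, adjusted p = 0.0076), Acta1 by 0.41 ± 0.12 and Tnnt2 by 0.34 ± 0.10, and Acta1 and Tnnt2 lost their call when any of 5 and of 4 arrays was left out. The count of muscle genes that fell was 6 without wildtype replicate 1 and 1 when any of wildtype replicates 2 and 3 and knockout replicates 1 and 2 was left out. Myod1 and Tnnt2 were below the median of genes on all 6 arrays, and no muscle gene was called with no moderation in limma. The summed muscle intensity was 1088 to 1435 against 922 to 1149. RMA intensities have no true zero, so a low value is not an absence. The part of these cell types in the change of Slc2a4 was not tested.

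Slc2a3 codes for Glut3, a carrier of high affinity known from neurons, placenta and blood cells. It read 1085, 1067 and 1103 in wildtype and 1965, 2092 and 2234 in knockout livers. The wildtype arrays were within 0.05 log2 units of each other and all lay below the knockout arrays. The mean rose from 10.08 ± 0.02 to 11.03 ± 0.09 (log2, SD, n = 3), by 0.95 ± 0.08 with an interval of 0.77 to 1.12 (limma, adjusted p = 1.3e-05), a 1.93-fold change and the 127th largest rise of all genes.

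Slc2a2 codes for Glut2, the low-affinity carrier of hepatocytes and beta cells. Its values were 458, 469 and 628 in the wildtype and 453, 436 and 468 in the knockout. The groups overlapped, and wildtype replicate 3 stood above the other 5 arrays. The change was -0.18 ± 0.12, interval -0.44 to 0.075 (limma, adjusted p = 0.3), and -0.036 without that array. The summed intensity of the 13 hepatoblast markers measured was also highest in wildtype replicate 3, at 84047 against 69496 and 69634 in the other wildtype livers and 67090 to 71525 in the knockout. The liver factor genes Hnf4a and Foxa3 went the other way, at 9.48 and 8.12 log2 units in that array, their lowest of all 6. Of these markers 3 were called lower, Apoa1, Fgb and Fga, with a median change over the list of -0.08. None of the 13 was called without wildtype replicate 3 (limma, adjusted p = 0.0847, 0.105 and 0.102 for the 3), nor without knockout replicate 2 or 3. Their part in the level of Slc2a2 was not tested.

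**Figure D2:**
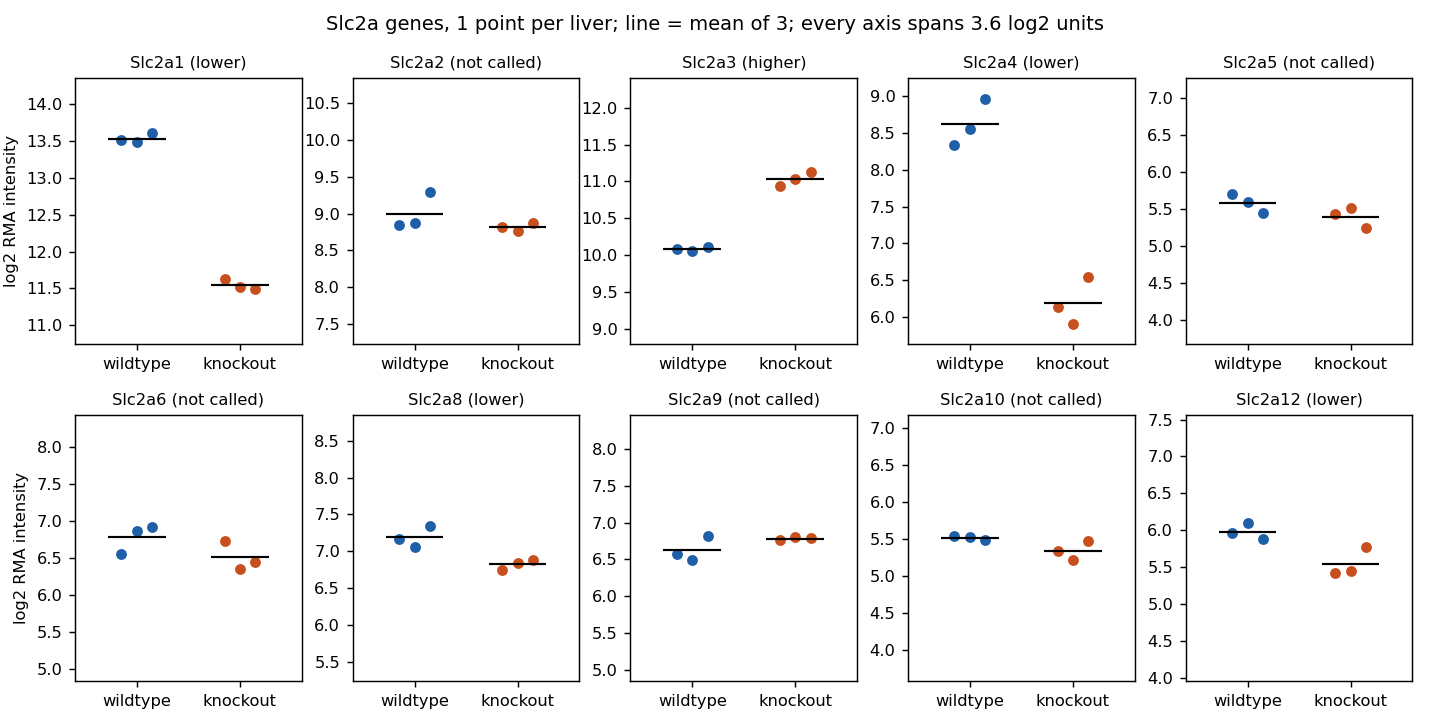
Intensity of each Slc2a gene on the log2 scale (y axis) in the 3 wildtype (blue) and 3 knockout (orange) livers, 1 point per liver with a line at the group mean; every panel spans the same log2 range at its own level. Slc2a1, Slc2a3 and Slc2a4 separate by far more than their spread, Slc2a8 and Slc2a12 by little more, and the single high point of Slc2a2 is wildtype replicate 3.

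The class II genes were not called. Slc2a5 codes for the fructose carrier Glut5 and read 51.9, 48.2 and 43.8 against 43.1, 45.8 and 37.7. The groups overlapped, with a change of -0.19 ± 0.10, interval -0.40 to 0.031 (limma, adjusted p = 0.212). Slc2a9 codes for Glut9, a urate carrier of liver and kidney, and read 6.57, 6.49 and 6.82 log2 units against 6.76, 6.80 and 6.79. The knockout arrays were close together inside the wildtype range, with a change of 0.16 ± 0.09, interval -0.054 to 0.37 (adjusted p = 0.277). Both intervals exclude a 2-fold change of the array signal in either direction. Slc2a5 was below the lower quartile of genes on 3 arrays and Slc2a9 below the median on all 6. At signals this low the bound need not hold for the RNA.

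Among the class III genes, Slc2a8 and Slc2a12 fell by little. Slc2a8 codes for Glut8, a carrier of internal membranes, and read 144, 134 and 162 in the wildtype and 108, 115 and 118 in the knockout. No knockout value reached the wildtype range. The change was -0.37 ± 0.09, interval -0.56 to -0.17 (limma, adjusted p = 0.0167), or 1.29-fold. Without knockout replicate 1 the adjusted p was 0.0535. In all, the call was lost in 4 of the 19 alternatives that kept the gene, with a limma adjusted p of up to 0.0904.

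Slc2a12 codes for Glut12, a carrier found in heart, muscle and fat. It read 62.1, 68.8 and 58.8 against 42.8, 43.8 and 54.6, below the median of genes on all 6 arrays. The third knockout array came close to the lowest wildtype one without crossing it. The change was -0.43 ± 0.11, interval -0.67 to -0.19 (limma, adjusted p = 0.0177), or 1.35-fold. Its call was lost with quantile normalization, which left 3 members lower. The call was also lost without wildtype replicate 2 (adjusted p = 0.0689), knockout replicate 1 (0.0599) or knockout replicate 2 (0.0704). The number of members that fell therefore lay between 2 and 4 with 1 array left out, and was 2 without knockout replicate 1.

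The other class III genes were not called. Slc2a6 codes for Glut6, a carrier of internal membranes in immune cells, and read 94.2, 116 and 121 against 106, 81.3 and 87.2. The groups crossed through the low first wildtype and the high first knockout array, with a change of -0.27 ± 0.12, interval -0.54 to 0.0011 (limma, adjusted p = 0.152). Slc2a10 codes for Glut10, linked in people to arterial tortuosity, and read 5.54, 5.52 and 5.49 log2 units against 5.33, 5.21 and 5.47. Here the groups did not overlap, yet the third knockout array lay close to the lowest wildtype one, and the change of -0.18 ± 0.09, interval -0.37 to 0.01, missed the threshold (adjusted p = 0.171). Slc2a5, Slc2a6, Slc2a9, Slc2a10 and Slc2a12 were below the median of genes on all arrays. Slc2a7 and Slc2a13, further genes of the family outside the 10, each changed by -0.09 ± 0.08 and were not called.

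The opposite changes of Slc2a1 and Slc2a3 were set against each other within each array. The log2 ratio of Slc2a3 over Slc2a1 intensity was -3.43, -3.42 and -3.49 in the wildtype and -0.69, -0.49 and -0.37 in the knockout. The size of a ratio between 2 probe sets depends on their probes, so only its change between groups is read here. All knockout ratios lay above all wildtype ratios, by 2.93 on average, or 7.64-fold (exact permutation test, 2-sided, p = 0.1, the smallest that 3 against 3 arrays can give). Since the groups overlapped in neither gene and the 2 genes moved in opposite directions, this separation and its p-value were fixed beforehand. The ratio of Slc2a4 over Slc2a1 was -5.18, -4.94 and -4.64 against -5.49, -5.60 and -4.95. These groups overlapped, with a change of -0.43 (exact permutation test, 2-sided, p = 0.2). Adjusted over the 2 ratios, both exact p-values were 0.2, and 3 against 3 arrays could not have passed 0.05.

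**Figure D3:**
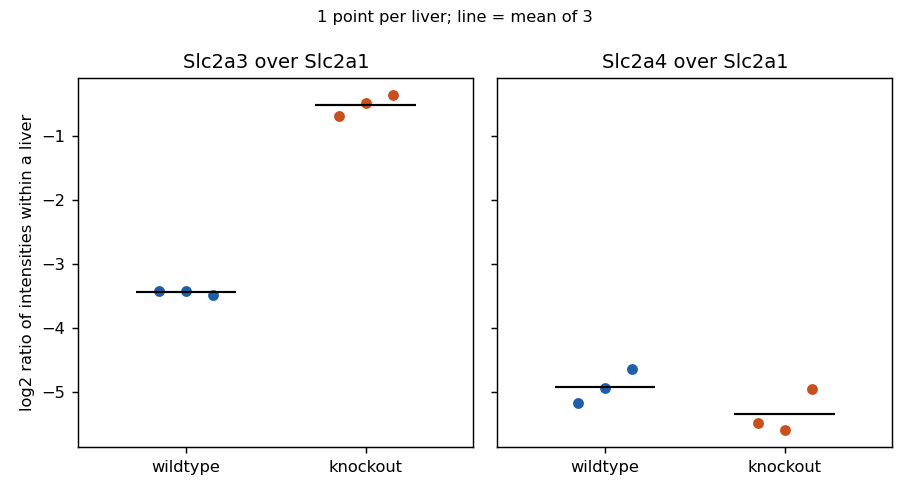
Log2 ratio of Slc2a3 over Slc2a1 (left) and of Slc2a4 over Slc2a1 (right) within each liver (y axis), 1 point per liver with a line at the group mean, wildtype in blue and knockout in orange. The left ratio moves from a mean of -3.45 to -0.51 with no overlap, and the right groups overlap.

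The genes whose profiles lay nearest to the members were found by Euclidean distance between log2 values centred on each gene's mean over the 6 arrays. For Slc2a1 they were Slc25a37, the mitochondrial iron importer of erythroid cells, at a distance of 0.1, then Cercam (0.169), Add2, the beta subunit of the membrane skeleton protein adducin (0.196), 1300017J02Rik (0.226) and Akap7 (0.23). Their changes ran from -2.15 to -1.90, around the -1.99 of Slc2a1. Slc25a37 read 13.39, 13.32 and 13.42 in the wildtype and 11.43, 11.41 and 11.41 in the knockout. For Slc2a3 the nearest were Mapkapk3 (0.0885), Mink1 (0.117), Plcb1 (0.125), the circadian repressor gene Cry2 (0.127) and Inpp4b (0.128), with changes from 0.88 to 1.04. For Slc2a4, added after its values were seen, they were Rgcc (0.469), the glutamine carrier gene Slc1a5 (0.504), the cell cycle factor gene E2f2 (0.508), Slc6a20a (0.552) and Tmc8 (0.552), with changes from -2.54 to -2.24. The larger distances for Slc2a4 go with its wider spread within groups. With 6 arrays in 2 groups, a near profile mostly means a change of like size.

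**Figure D4:**
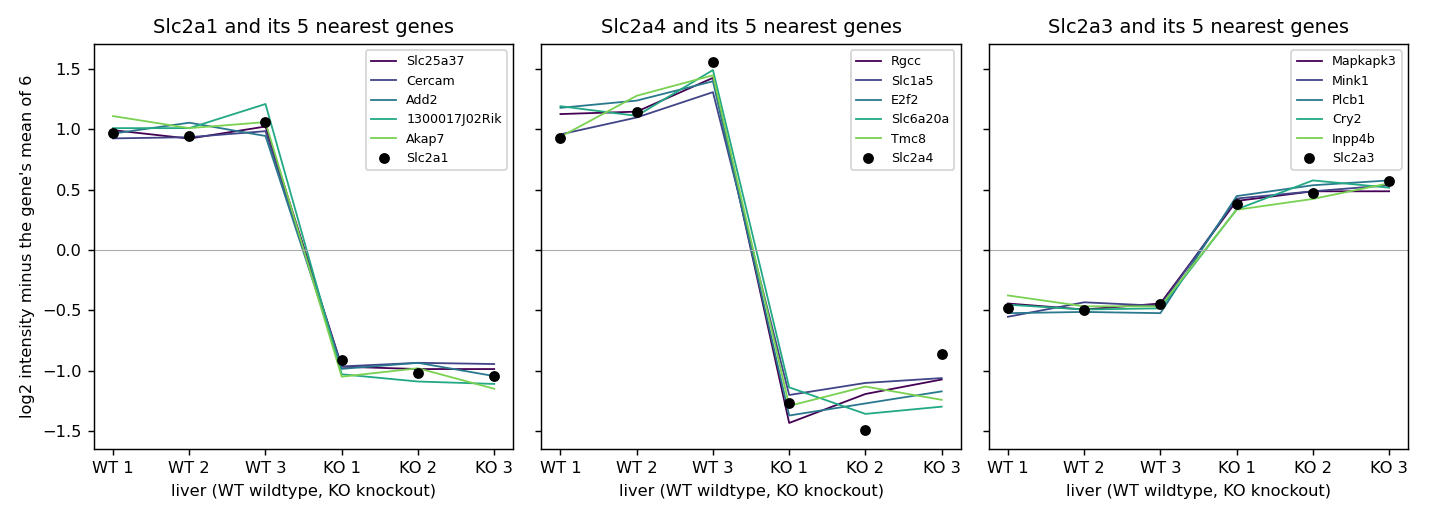
Log2 intensity minus the gene's own mean of 6 arrays (y axis) by liver (x axis) for Slc2a1, Slc2a4 and Slc2a3 (black points) and their 5 nearest genes (lines, which only join values and imply no order). The neighbours of Slc2a1 and Slc2a3 lie almost on the points, while Slc2a4 departs from its neighbours most in knockout replicates 2 and 3.

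Chromosomal neighbours were read to see whether the loci around the members moved. Of the 20 nearest measured coding genes, 1 on each side of each member, 3 were called, all higher, a share no larger than the 19.1% called among all genes. Tnik, a kinase gene beside Slc2a2, rose by 1.43 ± 0.09 (limma, adjusted p = 2e-06), while Slc2a2 was not called. Foxj2, a forkhead factor gene beside Slc2a3, read 8.31, 8.40 and 8.45 in the wildtype and 9.15, 9.17 and 9.14 in the knockout, a rise of 0.77 ± 0.08 (adjusted p = 4.6e-05) in the direction of Slc2a3. On the other side of Slc2a3, Nanog changed by -0.06 ± 0.08 and was not called. Wdr1, an actin disassembly gene beside Slc2a9, rose by 0.34 ± 0.09 (adjusted p = 0.0245), a call lost without wildtype replicate 3 (0.0694), knockout replicate 2 (0.0837) or knockout replicate 3 (0.0954). Beside Slc2a1, Lao1 changed by -0.18 ± 0.08 and Zfp691 by 0.23 ± 0.08, and beside Slc2a4, Ybx2 by -0.26 ± 0.10 and Cldn7 by -0.04 ± 0.08, none of them called.

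Other genes were taken from 8 lists of 88 genes, of which 79 were measured. The lists cover sugar transport and use, and 1 of them holds red cell membrane proteins. Of the 79 genes 15 rose and 11 fell, so 32.9% were called, against 19.1% of all genes. The lists were chosen with earlier results of these data known, so the larger share is not read as a result about sugar genes. Of the 11 that fell, 7 were from the red cell membrane list, and of 16 other sugar carriers 1 was called. The list in which every measured gene fell was that of red cell membrane proteins that hold or neighbour Glut1, with 7 of 7 lower and a median change of -1.10. Dmtn, the actin bundler dematin, read 10.38, 10.75 and 10.63 in the wildtype and 6.87, 6.70 and 7.02 in the knockout, and fell by 3.73 ± 0.11 (limma, adjusted p = 1.2e-08). The adducin genes Add2 and Add1, which with dematin tie Glut1 to the membrane skeleton, fell by 1.98 ± 0.08 and 0.86 ± 0.08. Stom, whose product stomatin binds Glut1, fell by 1.10 ± 0.09, and Slc4a1, the anion exchanger gene, fell by 0.78 ± 0.09. Epb42, which codes for a protein that anchors that exchanger, went from 12.09, 12.03 and 12.17 to 10.57, 10.61 and 10.62 (adjusted p = 3.8e-07). All 7 stayed called under every alternative in which they were tested at an adjusted p under 0.05.

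Of 6 genes of lactate carriage 2 rose and 1 fell, with a median change of -0.22. Slc16a1, which codes for the widely expressed lactate carrier Mct1, read 11.99, 11.91 and 12.10 in the wildtype and 11.11, 11.22 and 11.16 in the knockout, and fell by 0.84 ± 0.08 (limma, adjusted p = 4.0e-05). Slc16a3, which codes for Mct4, the lactate exporter of glycolytic cells, read 9.85, 9.80 and 10.03 against 10.83, 10.80 and 10.85, a rise of 0.94 ± 0.08 (adjusted p = 2.1e-05). In both genes the groups lay apart. Of the chaperones that carry these proteins to the surface, Emb rose by 0.37 ± 0.08 (adjusted p = 0.0073) and Bsg, at -0.22 ± 0.08, was not called.

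Enzymes that trap or release sugar inside the cell rose in 4 and fell in 1 of 12, with a median change of 0.14. Hk1, the main hexokinase gene of red cells, was not called, at 0.05 ± 0.08 with an interval of -0.12 to 0.22. Hk2, the inducible hexokinase gene, rose by 0.44 ± 0.09 (limma, adjusted p = 0.0057), the phosphatase gene G6pc3 by 0.53 ± 0.12 (0.0113), the galactosamine kinase gene Galk2 by 0.79 ± 0.10 (3.8e-04) and the galactose pathway gene Galt by 0.34 ± 0.08 (0.0099). Hkdc1 fell by 0.35 ± 0.09 (0.0218), a call lost without wildtype replicate 3 (0.0654), knockout replicate 1 (0.0641) or knockout replicate 2.

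Genes that sort, tether or degrade the carriers rose in 4 and fell in 1 of 18, with a median change of 0.08. Irs2, an insulin receptor substrate, rose by 0.97 ± 0.08 (limma, adjusted p = 1.7e-05) and Snap23, a membrane fusion protein, by 0.43 ± 0.08 (0.0039). Sort1, Stx4a and Arrdc3, at 0.38, 0.35 and -0.35, were called but lost the call when any of 3 or more arrays was left out. Txnip, the arrestin that removes Glut1 from the surface, was not called (-0.16 ± 0.09), nor was Insr (0.04 ± 0.09) or Tbc1d4, the brake on Glut4 traffic (0.01 ± 0.08).

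Of 9 regulators known to act on glucose carrier genes, 2 rose and 1 fell, with a median of 0.08. Sp3, a GC-box factor, fell by 0.53 ± 0.09 (limma, adjusted p = 0.0015). Mlxip, a glucose-sensing factor, rose by 0.40 (0.012) and lost its call without knockout replicate 3 (0.0614). Hif1a, the oxygen-responsive factor, rose by 0.29 (0.0402), and lost its call when any of 5 arrays was left out. Among 16 other sugar carriers only Slc50a1, which codes for the carrier Sweet1, was called, rising by 0.38 ± 0.08 (0.0095), and the list's median was -0.16; with 75th percentile centring 3 of the 16 were called. Of 9 urate and ascorbate genes 1 rose, the vitamin C carrier gene Slc23a2 (0.48 ± 0.09, adjusted p = 0.0026), and of 2 fructose genes measured Khk, the fructokinase gene, rose by 0.33 ± 0.09 (0.0261), losing its call without wildtype replicate 1 (0.0573) among others.

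Markers of the liver's cell types moved with genotype beside the carriers. Of 6 erythroid markers measured 5 fell, all but Rhag, with a median of -0.88 and a summed intensity of 44153 to 48127 in the wildtype against 23683 to 25643 in the knockout. The largest change among them was that of Ermap, at -1.59 ± 0.07, beside -1.99 ± 0.08 for Slc2a1. Of 12 macrophage markers 8 fell (median -0.43, sums of 6273 to 7709 against 4377 to 4987) and 6 to 9 fell with 1 array left out. All 9 megakaryocyte and platelet markers measured rose (median 0.69, sums of 16632 to 17604 against 21816 to 28545), 8 or 9 with 1 array left out. Of 11 granulocyte and monocyte markers 4 rose (median 0.43, sums of 5958 to 6614 against 7503 to 9473), with 2 called without wildtype replicate 3 or knockout replicate 3 and 6 without wildtype replicate 1 or knockout replicate 1. Endothelial markers rose in 3 of 10 (median 0.29), with overlapping sums of 4403 to 6118 and 5033 to 5939, and 6 were called without wildtype replicate 3 and 1 without wildtype replicate 1 or knockout replicate 3. Mesenchymal markers fell in 1 of 10 (median -0.19), with overlapping sums of 3522 to 5505 and 3286 to 3860, and 4 were called without wildtype replicate 1 and 0 without knockout replicate 2. The part of these cell types in the changes of Slc2a1, Slc2a3 and Slc2a4 was not tested.

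**Figure D5:**
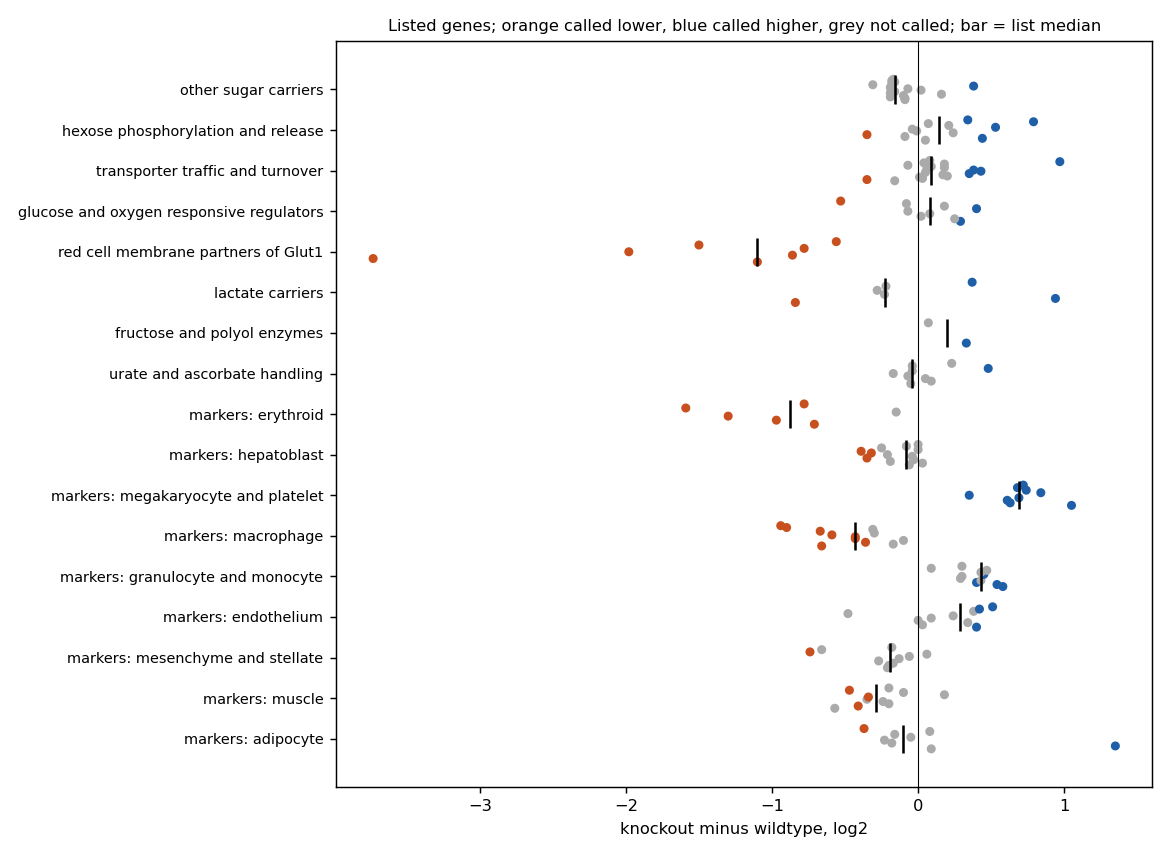
Change of each listed gene, knockout minus wildtype in log2 units (x axis), by list, 1 point per gene with a bar at the list's median; orange is called lower, blue called higher, grey not called. The red cell membrane partners and the erythroid and macrophage markers all lie below 0, and the megakaryocyte and granulocyte markers and the 2 fructose genes all above it, while each other list holds both signs.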

How the data were processed

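Intensities of 34760 probe sets on 6 arrays were used as deposited, on a linear scale. Per the submitters' processing notes, the authors made these intensity values by RMA (Affymetrix Power Tools 1.8.6). RMA equalises the distributions of probe values between arrays, so a change in total RNA cannot be seen. The build used upstream is not given in the sources used here. Probe sets naming 1 gene (21640) were kept, the brightest per gene, and log2 was taken. The groups were compared 2-sided in limma 3.58.1 under R 4.3.3 (lmFit, eBayes), without a filter, with adjustment over 19937 genes. Ratios within arrays were tested by exact permutation.

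The 10 genes and all lists were chosen with earlier results of these data known. Genes named are the 10, up to 6 called per list (the largest where more were called), the 5 nearest profiles, and genes singled out by function. Litters are not named in the labels; p-values reflect only how these samples spread, which may be technical. Alternatives covered scaling, filters, probe set choice, variance model, a Y-linked gene covariate, a replicate block, a stricter threshold and leaving out each array. The fit was tested on simulated data.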

Additional observations from a re-analysis of the deposited data

How the results depend on the processing

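Slc2a1, Slc2a3 and Slc2a4 kept their direction and call in all 20 alternatives, with changes of -2.05 to -1.93, 0.88 to 0.99 and -2.58 to -2.24, and no member reversed or gained a call. Of the members, 4 were lower, and 3 with quantile normalization, where Slc2a12 lost its call. Only 2, Slc2a1 and Slc2a4, were lower with genes above the median, every probe set, no moderation or an adjusted p under 0.01. With 1 array left out 2 to 4 were lower, and 2 without knockout replicate 1. The filter and the stricter threshold drop calls by construction; for the others the cause was not tested. Of all genes 3809 were called, 2362 with every probe set, 2083 with no moderation and 1995 at an adjusted p under 0.01, and 2409 to 3749 with 1 array left out (2409 without knockout replicate 2, 2414 without knockout replicate 3). Of the 79 genes measured in the 8 lists 15 rose, 7 with no moderation and 9 at an adjusted p under 0.01. Same-numbered samples did not all deviate together (r of -0.156, -0.224 and 0.183), and r ran from -0.165 to 0.329 for unlike numbers. Centring within groups of 3 arrays ties these r to each other, so they cannot settle whether samples were paired. With the replicate block 3498 genes were called, with 1 member higher and 4 lower. Of 340 other list counts 254 stayed within 1.5 times. The brightness filters left no value for Slc2a5 and Slc2a10 under either and for Slc2a6, Slc2a8, Slc2a9 and Slc2a12 under the stricter. The number of arrays limits precision.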
